A study of Ovis aries with 12 samples.

Results

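The left ventricle of the 6-month lamb (P173) was set against that of the near-term fetus (F140), with miRNA measured in total RNA on a custom array. All arrays labelled with these ages were taken, which are 6 of the 12 samples of the series, 3 per age, 1 per animal. The P173 lambs were 173 days old by the labels. The F140 fetuses are labelled 141 days of gestation, close to term, and the name F140 is kept from the study. All animals were Merino sheep described as controls, and none had been given a treatment. The 6 animals were females, and all were singletons except F140 replicate 2, a twin. The other 6 arrays, at F91 and P5 (labelled 91 days of gestation and 5 days after birth), shared the fit and are given as levels only where the course between the ages is described. The comparison addresses which miRNA of the ventricle differ between a heart shortly before birth and one well after it. The tissue is a mixture of cells, and fewer cells of a type cannot be told apart from less RNA per cell.

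MicroRNA are short RNA that guide Argonaute proteins to messenger RNA, mainly by pairing through the seed near their 5′ end, and so lower the output of the genes they match. miRNA with the same seed share many targets, and many are processed from transcripts that hold several hairpins and are made together. In the heart, miRNA of muscle such as miR-1, miR-133a and miR-499 accumulate as cardiomyocytes mature, while others are known from proliferating cells, connective tissue or the placenta and fetus.

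The target sequences of the probes are shown for the miRNA on which the results turn, as the array's annotation gives them, with the seed (bases 2 to 8 from the 5′ end) in capitals. The first set rose at P173. The entries named PC are candidates that the array's annotation lists without a miRNA name.
miR-29a: uAGCACCAucugaaaucgguu
miR-193b: aACUGGCCcacaaagucccgcuuu
miR-22-3p: aAGCUGCCaguugaagaacug
PC-5p-13703_301: cAGGGAAUuguuuaaguagaacuucagc
PC-5p-105598_28: aACUGCUAauucuaugccca
PC-5p-51939_63: cUAAACCCcgccuguuua
PC-5p-157221_17: gGAUGGUUuagugaggc

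The second set fell at P173 and is printed in groups, to show which seeds recur. The miR-376 miRNA carry 2 seeds that differ in the first base. miR-424-5p, its rodent counterpart miR-322-5p and miR-15b share the seed AGCAGCA. The members of the miR-17 group share AAAGUGC. miR-379-3p and miR-411a-3p share AUGUAAC, and miR-380-3p differs from them in the last base of the seed.
miR-376a-3p: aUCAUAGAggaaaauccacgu
miR-376d: aUCAUAGAggaaaauccacau
miR-376c-3p: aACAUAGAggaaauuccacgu
miR-376e-3p: aACAUAGAggaaaauccacauu
miR-424-5p: cAGCAGCAauucauguuuuga
miR-322-5p: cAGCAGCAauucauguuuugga
miR-15b: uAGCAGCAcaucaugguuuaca
miR-17-5p: cAAAGUGCuuacagugcaggua
miR-20b: cAAAGUGCucacagugcaggua
miR-106a: aAAAGUGCuuacagugcaggu
miR-106b: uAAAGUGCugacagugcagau
miR-379-3p: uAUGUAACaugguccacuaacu
miR-411a-3p: uAUGUAACacgguccacuaac
miR-380-3p: uAUGUAAUgugguccacgucu
miR-432: uCUUGGAGuaggucauugggugg
miR-335: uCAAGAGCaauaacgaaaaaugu

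Most of the miRNA that passed the test were lower in the lamb. Of 3091 probes, 92 differed between P173 and F140 (2.98 %), of which 17 were higher (0.55 %) and 75 lower (2.43 %) at P173. The test was limma's on log2(value + 0.1), fitted over all 12 arrays, and a probe was called at a Benjamini-Hochberg adjusted p of at most 0.05 over all probes. Every adjusted p given is limma's. Values are normalised array units on a linear scale. The array holds several probes for many miRNA, and with 1 probe per name 14 of 2190 names were higher and 61 lower. Where all 3 arrays of an age read under 32 units, the miRNA was taken as under background there. Its fold was then measured against 32 units and is a lower bound (at least N-fold). Over all 3091 probes, 571 (18.5 %) had all 3 arrays of one age above all 3 of the other, and so did each of the 92 called probes. With quantile normalisation 28 probes were higher and 70 lower, so the share of higher calls depended on the scaling. The median of all probes was -0.05 (log2, P173 minus F140) and 0.09 after quantile normalisation.

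**Figure D1:**
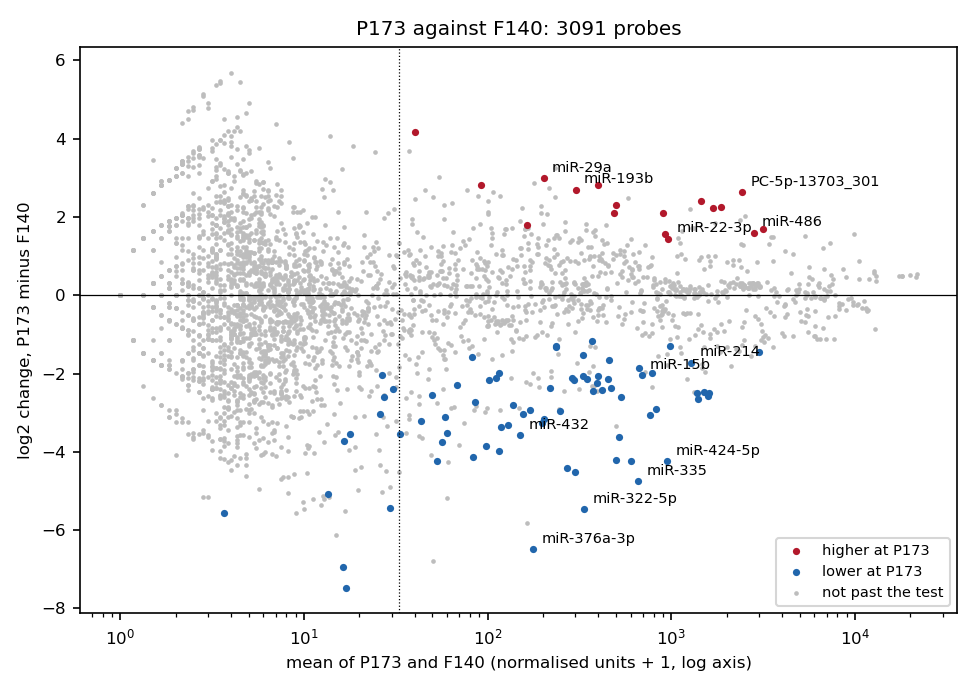
Each point is 1 of 3091 probes, with the mean of both ages in normalised units + 1 on a log axis and the log2 change, P173 minus F140, on the vertical axis. Red points are the 17 probes higher at P173, blue points the 75 lower and grey points those not past the test, and the dotted line marks 32 units. The falls reach much larger log2 changes than the rises among probes over 32 units.

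The arrays differed in ways that touch some results. The brightness of the scans, as the 90th percentile of raw probe intensity, ran between 708 and 2014 at P173 and up to 1504 at F140, and P173 replicate 2 was the dimmest of the P173 scans. It read lowest of its age for 12 of the 15 named falls and highest for 10 of the 13 named rises. Between 944 and 977 probes reached 32 units on the P173 arrays and between 970 and 1064 on the F140 arrays. AU-rich probes read relatively high on the F140 arrays: per 10 % of GC content the log2 deviations changed by 0.10 ± 0.14 at P173 and by -0.32 ± 0.15 at F140 (SD, n = 3 each). Over the 775 probes that averaged 100 units or more, pairs of arrays correlated at 0.911 to 0.935 within P173, at 0.806 to 0.905 within F140 and at 0.630 to 0.876 between the ages (log2, across probes, which are not independent replicates). With P173 replicate 2 left out 53 probes were called, with F140 replicate 1 left out 42, with F140 replicate 2 left out 51 and with F140 replicate 3 left out 54. Of the 75 names called, 30 were called with any 1 of the 6 arrays left out.

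The strongest rise among named miRNA was that of miR-29a, which represses collagens and other proteins of the extracellular matrix. miR-29a read 437, 262 and 366 units at P173, against 67, 42 and 30 units at F140, so that the lowest lamb lay far above the highest fetus. The mean was 355 ± 88.0 units at P173 and 46.3 ± 18.9 at F140 (SD, n = 3 each), a log2 change of 2.98 with a standard error of 0.53 (adjusted p = 0.00675, and 0.0407 at most with 1 array left out). The miR-29 list holds 6 names, all with a positive log2 change (median 2.71, against -0.08 over all names, and 1.46 from the scanner intensities), but 1 passed the test and 5 did not. miR-29d-3p read 495, 338 and 295 units at P173, against 57, 64 and 46 at F140 (log2 change 2.73, adjusted p = 0.06). miR-29b read 273, 127 and 140 units at P173, against 35, 48 and 12 at F140 (log2 change 2.63, adjusted p = 0.38). The P173 and F140 arrays of these 2 miRNA did not overlap either, and their levels were near or under background at F91 and P5. The count in this family depended on the background correction and on the arrays fitted. From the scanner intensities 5 of the 6 names were called, and 3 with the 6 arrays of these ages fitted alone. The course of miR-29a over the 4 ages was 12.3 ± 2.89 units (F91), 46.3 ± 18.9 (F140), 61.3 ± 32.2 (P5) and 355 ± 88.0 (P173) (SD, n = 3 each), so the mean changed most after P5.

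miR-193b, known in mice for its part in the differentiation of brown fat and muscle precursors, also rose. It read 356, 648 and 560 units at P173, against 64, 83 and 89 at F140. The log2 change was 2.70 with a standard error of 0.34 (adjusted p = 0.000896), and the call held with any array left out, with the adjusted p at 0.0073 or less. Its levels at the other ages were close to that of the fetus, 101 ± 3.61 units at F91 and 71.7 ± 5.13 at P5 (SD, n = 3 each). miR-365-3p, from the same family of paired hairpins, read 254, 155 and 537 units at P173, against 48, 93 and 108 at F140, and missed the threshold (log2 change 1.82, adjusted p = 0.07). It passed with the trend of GC content taken out of each array (adjusted p = 0.02). The miR-193/miR-365 list of 7 names held 1 rise and no fall.

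miR-22-3p, abundant in heart and skeletal muscle and needed in mice for the hypertrophic response of the heart, rose on its chosen probe. It read 1370, 1677 and 1186 units at P173, against 491, 482 and 565 at F140 (log2 change 1.45 ± 0.35 SE, adjusted p = 0.0373). All 3 lambs lay above all 3 fetuses, yet the call was lost with any 1 of the 6 arrays left out, with an adjusted p of 0.0544 to 0.151. miR-22-5p, the opposite arm, read 256, 178 and 293 units at P173, against 81, 68 and 72 at F140, and did not pass on its chosen probe (log2 change 1.69, adjusted p = 0.46). A variant probe of the same arm did pass, with 289, 170 and 304 units at P173, against 77, 73 and 64 at F140 (log2 change 1.79, adjusted p = 0.0374). The probes of the 5p arm thus gave similar folds and different calls. With the 6 arrays of these ages fitted alone, both arms were called on their chosen probes.

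miR-486, made from the ankyrin gene ANK1 and abundant in muscle and red blood cells, was the only member of the muscle list that rose, on 2 of its 26 names. It read 2917, 4924 and 4889 units at P173, against 1469, 1185 and 1458 at F140 (log2 change 1.60 ± 0.26 SE, adjusted p = 0.00418). The shorter probe named miR-486-5p read 552, 850 and 1047 units at P173, against 290, 150 and 92 at F140 (log2 change 2.31, adjusted p = 0.031). The groups did not overlap on either probe. These targets are GC-rich (63.6 % and 75.0 %), and with the GC trend taken out neither was called (adjusted p = 0.12 and 0.50). The shorter probe also lost its call without P173 replicate 1, 2 or 3 and without F140 replicate 2 or 3 (adjusted p up to 0.134). The other red cell miRNA gave no rise: miR-451 read 1901, 140 and 1956 units at P173, against 2235, 3324 and 3044 at F140 (log2 change -1.81, adjusted p = 0.40). Of 7 names in the red cell list 2 were higher, both of them miR-486, and 1, miR-144-3p, was lower, with all arrays at 0 at P173 and 27, 66 and 3 units at F140. The mean of miR-144-3p at F140 was itself no higher than background, its call was lost in 5 of the 6 fits with 1 array left out (adjusted p up to 0.117), and its adjusted p was 0.0593 with the GC trend taken out. The summed level of that list was 5392 to 7924 units at P173 and 4064 to 4810 at F140, and the part of blood in these results was not tested. The sum counts miR-486 on both of its probes, whose targets share a run of 15 bases and so are not independent measurements.

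Of the 13 named rises, 6 were unnamed candidates, which ranged widely in level. Whether the targets of these candidates overlap other kinds of RNA was not tested. PC-5p-13703_301 read 3652, 6057 and 2843 units at P173, against 459, 903 and 626 at F140 (log2 change 2.64 ± 0.38 SE, adjusted p = 0.00239). PC-5p-105598_28 read 1728, 3454 and 2197 units at P173, against 541, 470 and 342 at F140 (log2 change 2.41 ± 0.36 SE, adjusted p = 0.00239). Both calls held with any array left out. PC-5p-51939_63 read 114, 193 and 173 units at P173, against 16, 24 and 28 at F140, all 3 under background, which gives a rise of at least 5.00-fold (adjusted p = 0.00595, with a highest value of 0.033 when 1 array is left out). PC-5p-157221_17 read 4571, 2809 and 1908 units at P173, against 410, 684 and 787 at F140 (adjusted p = 0.017). The remaining 2, PC-5p-53292_62 and PC-3p-27869_130, had log2 changes of 2.81 and 2.11. PC-5p-157221_17 lost its call without P173 replicate 1 or 2 and without F140 replicate 1 or 2 (adjusted p up to 0.087), PC-5p-53292_62 without P173 replicate 2 or F140 replicate 1 (up to 0.116), and PC-3p-27869_130 without P173 replicate 2 or 3 and without F140 replicate 1 or 2 (up to 0.119).

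Beside them rose 2 entries named for the mir-1973 hairpin. This name stands in the list of entries that overlap other kinds of small RNA, since its human sequence matches mitochondrial RNA. mir-1973-p3 read 895, 1864 and 1498 units at P173, against 200, 216 and 732 at F140 (log2 change 2.10 ± 0.46 SE, adjusted p = 0.0234). mir-1973-p5 read 3109, 6235 and 4853 units at P173, against 966, 1142 and 2511 at F140 (log2 change 1.70, adjusted p = 0.0441). These 2 targets share a run of 16 bases and so are not independent measurements. Both lost their calls without P173 replicate 2 or 3 and without F140 replicate 1 or 2 (adjusted p up to 0.129 and 0.211). The probe chosen for miR-1973 itself read 3273, 6736 and 5726 units at P173, against 1689, 1227 and 2711 at F140, and missed the threshold (adjusted p = 0.0666). Another probe of that name did pass, with 1811, 3577 and 2816 units at P173, against 307, 510 and 1133 at F140 (log2 change 2.23, adjusted p = 0.0125). Its call was lost without P173 replicate 2 and without F140 replicate 1 or 2. Of the 31 names in that list, mir-1973-p3 and mir-1973-p5 were higher, none was lower and 29 did not pass on their chosen probe.

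The rises followed different courses between the ages. Some of the unnamed candidates and mir-1973 were at P5 as high as in the lamb, and others were not. PC-5p-13703_301 averaged 1004 ± 329 units (F91), 663 ± 224 (F140), 4848 ± 1418 (P5) and 4184 ± 1672 (P173) (SD, n = 3 each). mir-1973-p3 averaged 383 ± 303 units (F140), 1414 ± 421 (P5) and 1419 ± 489 (P173). PC-5p-53292_62 averaged 119 ± 91.0 units (F140), 309 ± 27.3 (P5) and 679 ± 309 (P173), and its P5 arrays lay below all its P173 arrays. miR-486 had a higher mean at each later age, with 623 ± 26.5 units (F91), 1371 ± 161 (F140), 1975 ± 105 (P5) and 4243 ± 1149 (P173). The 3 lambs at P5 were all twins by the labels, so that twin birth and age cannot be told apart there. The array names of P5 replicates 1 and 2 share a number, followed by the letters A and B. Whether these lambs were siblings was not tested.

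**Figure D2:**
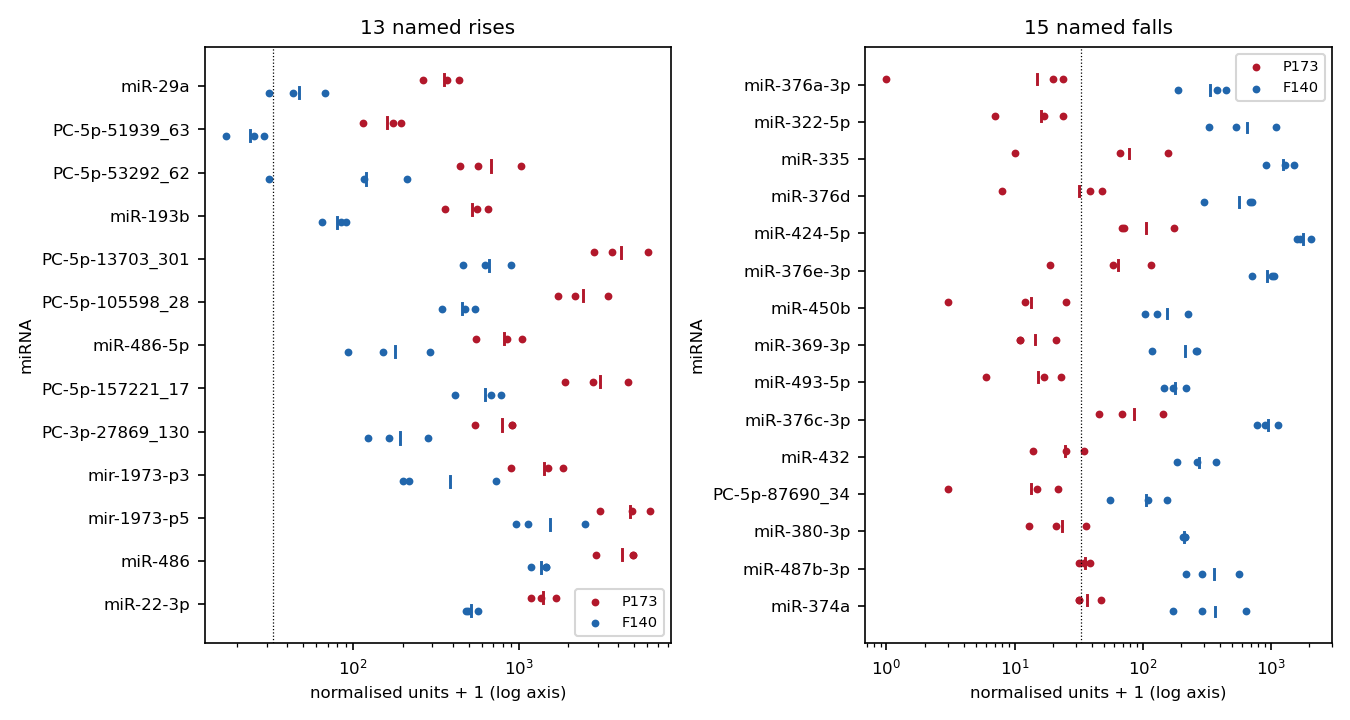
Each row is 1 of the 13 named rises (left) or 15 named falls (right), with the value of each of the 3 arrays per age in normalised units + 1 on a log axis, P173 in red above F140 in blue, a bar at the mean and a dotted line at 32 units. The 3 arrays of P173 and the 3 of F140 did not overlap in any row, which the rule for naming required.

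Among the falls, miRNA of the imprinted DLK1-DIO3 region of sheep chromosome 18 were the largest group. The region is expressed from the maternal chromosome for its noncoding RNA, among them a long array of miRNA hairpins, and is known for high activity in fetal tissues and for a decline after birth. Of 61 names that fell, 26 belong to it, and none of its 112 names rose. The other 86 names did not pass, and 72 of the 112 read under background on all 6 arrays. The median log2 change of the list was -1.76, against -0.08 over all names, and -1.68 with the GC trend taken out, when 21 names were called. From the scanner intensities the median was -0.11, and 22 names were called.

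miR-380-3p, miR-411a-3p, miR-432 and miR-493-5p of the region fell, and their lambs lay well below their fetuses. miR-380-3p read 20, 12 and 35 units at P173, against 215, 205 and 213 at F140 (log2 change -3.37 ± 0.39 SE, adjusted p = 0.000733). miR-411a-3p read 35, 29 and 36 units at P173, against 246, 238 and 346 at F140 (log2 change -3.03 ± 0.35 SE, adjusted p = 0.000733). miR-432 read 24, 13 and 34 units at P173, against 184, 263 and 376 at F140 (log2 change -3.57 ± 0.42 SE, adjusted p = 0.000733). These 3 calls held with any array left out, with an adjusted p of 0.00544 or less. miR-493-5p read 22, 5 and 16 units at P173, all under background, against 172, 146 and 218 at F140, and was at least 5.58-fold lower (adjusted p = 0.000896).

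miR-127 and miR-487b-3p, of the same region, fell likewise. miR-127, which lies antisense to the retrotransposon-derived gene RTL1 and represses it, read 96, 121 and 199 units at P173, against 681, 471 and 780 at F140 (log2 change -2.25 ± 0.33 SE, adjusted p = 0.00239). miR-487b-3p read 31, 38 and 34 units at P173, against 219, 292 and 566 at F140 (log2 change -3.27 ± 0.41 SE, adjusted p = 0.000896). The lambs were close to each other for miR-487b-3p while the fetuses spread more widely. miR-379-5p read 54, 21 and 32 units at P173, against 195, 213 and 299 at F140 (log2 change -2.80 ± 0.49 SE, adjusted p = 0.00608). miR-329b-3p read 35, 41 and 47 units at P173, against 180, 152 and 204 at F140 (log2 change -2.12 ± 0.33 SE, adjusted p = 0.00249). All 4 of these calls, and those of 15 of the 26 names in all, held with any 1 array left out.

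The miR-376 family fell on several of its members. miR-376c-3p read 142, 45 and 68 units at P173, against 909, 787 and 1139 at F140 (log2 change -3.62 ± 0.55 SE, adjusted p = 0.00244). miR-376e-3p read 115, 18 and 58 units at P173, against 1019, 712 and 1069 at F140 (log2 change -4.22 ± 0.65 SE, adjusted p = 0.00249). Both held with any array left out, and P173 replicate 2 was the lowest lamb for each. miR-376d read 47, 7 and 38 units at P173, against 711, 301 and 692 at F140 (log2 change -4.50 ± 0.81 SE, adjusted p = 0.00785). miR-376a-3p read 23, 0 and 19 units at P173, all under background, against 381, 189 and 443 at F140, and was at least 10.6-fold lower (adjusted p = 0.0373). The call of miR-376a-3p was lost without F140 replicate 1, 2 or 3, with an adjusted p of 0.117, 0.081 and 0.128. The targets of miR-376d and miR-376e-3p share a run of 19 bases, as do those of miR-376a-3p and miR-376d, so these probes are not independent measurements.

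miR-369-3p, at the far end of the region, is very AU-rich (23.8 % GC) and read 10, 20 and 10 units at P173, all under background, against 260, 117 and 267 at F140. It was at least 6.71-fold lower (adjusted p = 0.0104), but its adjusted p was 0.0654 with the GC trend taken out, 0.0524 without F140 replicate 1 and 0.0521 without F140 replicate 3.

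In the RefSeq gene order of the sheep, 55 miRNA genes lie in a row on chromosome 18 from MIR493 to MIR323C, and all 55 have probes on the array. On the 1 probe chosen per name, some name reached 32 units at either age for 31 of them, and 24 had a name that fell, among them MIR758 and MIR410, whose chosen probes stayed under 32 units on all 6 arrays. For MIR411B a variant probe of miR-411b-3p, not counted here, read 9, 11 and 8 units at P173, against 59, 43 and 47 at F140 (adjusted p = 0.0217). Its call was lost without P173 replicate 1, without F140 replicate 1, 2 or 3 and with the GC trend taken out (adjusted p = 0.0915). The falls were spread from MIR493, the first gene, to MIR410, the last but one. The exceptions in direction among names over background were miR-494-3p, with 593, 919 and 350 units at P173, against 223, 457 and 601 at F140 (log2 change 0.55, adjusted p = 0.80), and miR-381-5p. miR-381-5p read 162, 1807 and 32 units at P173, against 0, 678 and 805 at F140 (log2 change 2.48, adjusted p = 0.75), so its arrays scattered widely within both ages.

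**Figure D3:**
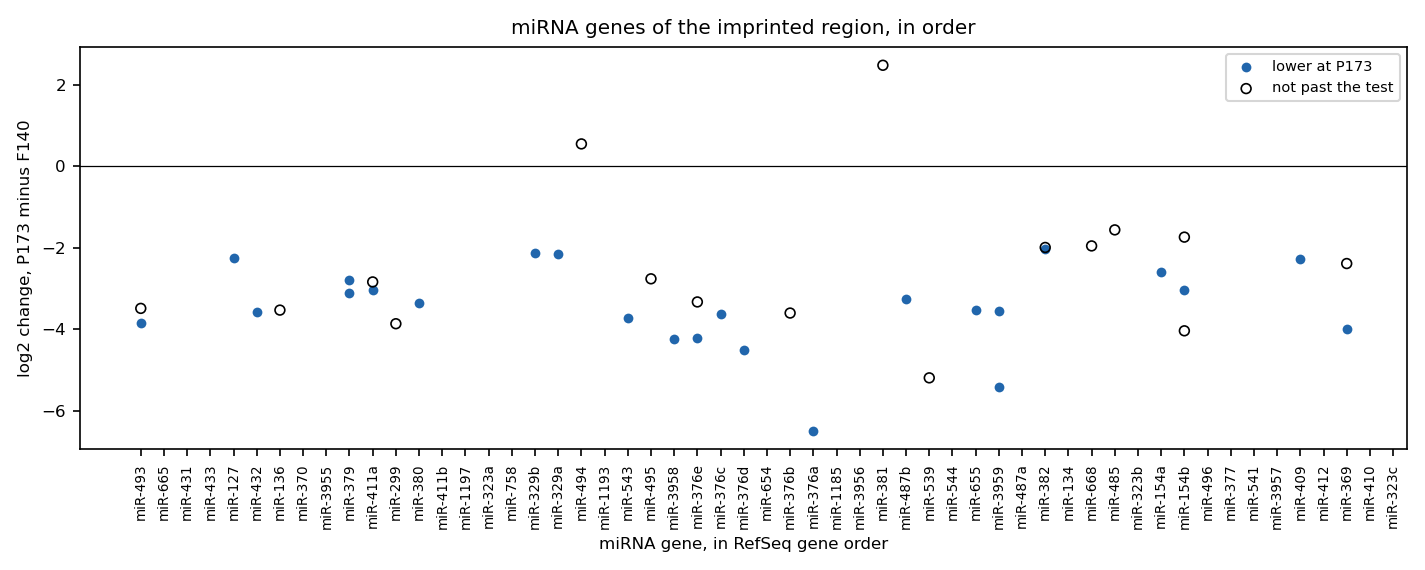
The horizontal axis lists the 55 miRNA genes of the region in RefSeq order, without scale, and the vertical axis gives the log2 change, P173 minus F140, of each name that reached 32 units at either age on its chosen probe. Filled blue points passed the test and open points did not, and apart from miR-494-3p and miR-381-5p all points lie below 0.

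The second large fall was that of miR-424-5p and miR-322-5p, from an X-linked transcript that also carries miR-503, miR-542 and miR-450 and is known to slow the cell cycle by repressing cyclins and CDC25A. miR-424-5p read 174, 68 and 71 units at P173, against 1696, 1613 and 2054 at F140 (log2 change -4.23 ± 0.60 SE, adjusted p = 0.00231). miR-322-5p read 23, 6 and 16 units at P173, all under background, against 1090, 330 and 537 at F140, and was at least 20.4-fold lower (adjusted p = 0.000896). Both calls held with any array left out. Their targets share a run of 20 bases, so they count as 1 observation. miR-450b, from the same transcript, read 24, 2 and 11 units at P173, all under background, against 227, 103 and 128 at F140, at least 4.77-fold lower (adjusted p = 0.0223). Its call was lost without P173 replicate 2 and without F140 replicate 1, 2 or 3 (adjusted p up to 0.11) and with the GC trend taken out (0.0713). Of the 11 names in this list 3 fell, none rose and 8 did not pass, and all 11 log2 changes were negative. miR-542-3p, with 9, 8 and 5 units at P173, all under background, against 78, 61 and 56 at F140, missed the threshold (adjusted p = 0.06).

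The miR-15 family shares its seed with miR-424-5p and is known in mice to restrain the proliferation of cardiomyocytes after birth. miR-15b read 321, 193 and 302 units at P173, against 1000, 1229 and 1074 at F140 (log2 change -2.05 ± 0.31 SE, adjusted p = 0.00244), and the call held with any array left out. miR-16-5p, which pairs with miR-15b in a hairpin cluster, read 1576, 938 and 2551 units at P173, against 5297, 3158 and 4513 at F140 (log2 change -1.44, adjusted p = 0.0368), and kept its call only when P173 replicate 3 was left out. The ovine probe of miR-16b read 5379, 2595 and 5690 units at P173, against 7665, 6273 and 8506 at F140, and did not pass (log2 change -0.79, adjusted p = 0.20). miR-15a read 177, 47 and 107 units at P173, against 610, 502 and 435 at F140 (log2 change -2.41, adjusted p = 0.12). miR-195 and miR-497, from another cluster, were dim: miR-195 read 71, 21 and 28 units at P173, against 98, 67 and 88 at F140 (adjusted p = 0.45), and miR-497 read 29, 35 and 28 units at P173, against 17, 35 and 30 at F140 (adjusted p = 0.93). Of 13 names in the list 3 fell (miR-15b, miR-15b-5p and miR-16-5p), none rose and 10 did not pass, beside 61 falls among all 2190 names. miR-15b and miR-15b-5p are entries of the same miRNA. Over the whole array 16 of 2190 names carry the seed AGCAGCA, of which 6 fell and none rose. These are miR-15b, miR-15b-5p, mir-15b-p3, miR-16-5p, miR-424-5p and miR-322-5p, so they are fewer miRNA than names.

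The miR-17-92 group and its paralogs, known from proliferating cells and from the growth of the embryonic heart in mice, fell in 7 of 30 names, and all 30 log2 changes were negative (median -2.03, and -0.49 from the scanner intensities). Of the 30 names, 13 read under background on all 6 arrays. miR-19b read 40, 41 and 34 units at P173, against 397, 258 and 242 at F140 (log2 change -2.93 ± 0.50 SE, adjusted p = 0.00595), and held with any array left out. miR-17-5p read 137, 123 and 210 units at P173, against 769, 515 and 645 at F140 (log2 change -2.06 ± 0.39 SE, adjusted p = 0.0104). miR-106a read 159, 131 and 208 units at P173, against 877, 545 and 778 at F140 (log2 change -2.14, adjusted p = 0.0117). miR-20b, miR-20a and miR-106b fell by 2.17, 2.12 and 2.37 on the log2 scale, and miR-25-3p by 1.29. Their 3 lambs lay under their 3 fetuses in each case. miR-20a and miR-106b lost their calls with any 1 array left out (adjusted p up to 0.176 and 0.173), miR-17-5p without P173 replicate 2 or F140 replicate 1 (0.0524 at most), miR-106a and miR-20b without P173 replicate 2, F140 replicate 1 or F140 replicate 3 (0.0634 and 0.0824 at most), and miR-25-3p without P173 replicate 2 or F140 replicate 1, 2 or 3 (0.0927 at most). miR-92a, from the same transcripts but with another seed, read 867, 482 and 1083 units at P173, against 1427, 1899 and 1701 at F140, and did not pass (log2 change -1.12, adjusted p = 0.09). Of 12 names with the seed AAAGUGC, 5 fell and 5 were under background at both ages.

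The levels at P5 show when these groups were low. The counts here are of calls in the same fit. Of the 112 names of the imprinted region, none was called lower at P5 than at F140 (0.971 % of all probes). Called lower at P173 than at P5 were 16 of them (0.679 % of all probes). Some names without a call had lower levels at P5 than at F140, as miR-376c-3p below. For the miR-17-92 list those counts were 4 and 0 of 30, and for the miR-424/miR-503 list 3 and 0 of 11. These comparisons share arrays with that of P173 and F140, so they describe the course and add no independent evidence. miR-424-5p averaged 135 ± 128 units (F91), 1788 ± 234 (F140), 136 ± 46.5 (P5) and 104 ± 60.4 (P173) (SD, n = 3 each), so that F140 stood out against all other ages. Per 10 % of GC content, the log2 deviations changed on average by -0.32 at F140, 0.18 at F91, 0.04 at P5 and 0.10 at P173. AU-rich targets thus read relatively high at F140, and the part of this in the courses was not tested. miR-432 averaged 878 ± 86.3 units (F91), 274 ± 96.5 (F140), 226 ± 71.7 (P5) and 23.7 ± 10.5 (P173). miR-15b averaged 4463 ± 1351 units (F91), 1101 ± 117 (F140), 1303 ± 287 (P5) and 272 ± 69.1 (P173), and so fell in 2 steps with a level stretch around birth. Within the imprinted region both courses occurred, since miR-376c-3p averaged 175 ± 137 units (F91), 945 ± 179 (F140), 247 ± 99.2 (P5) and 85.0 ± 50.7 (P173).

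**Figure D4:**
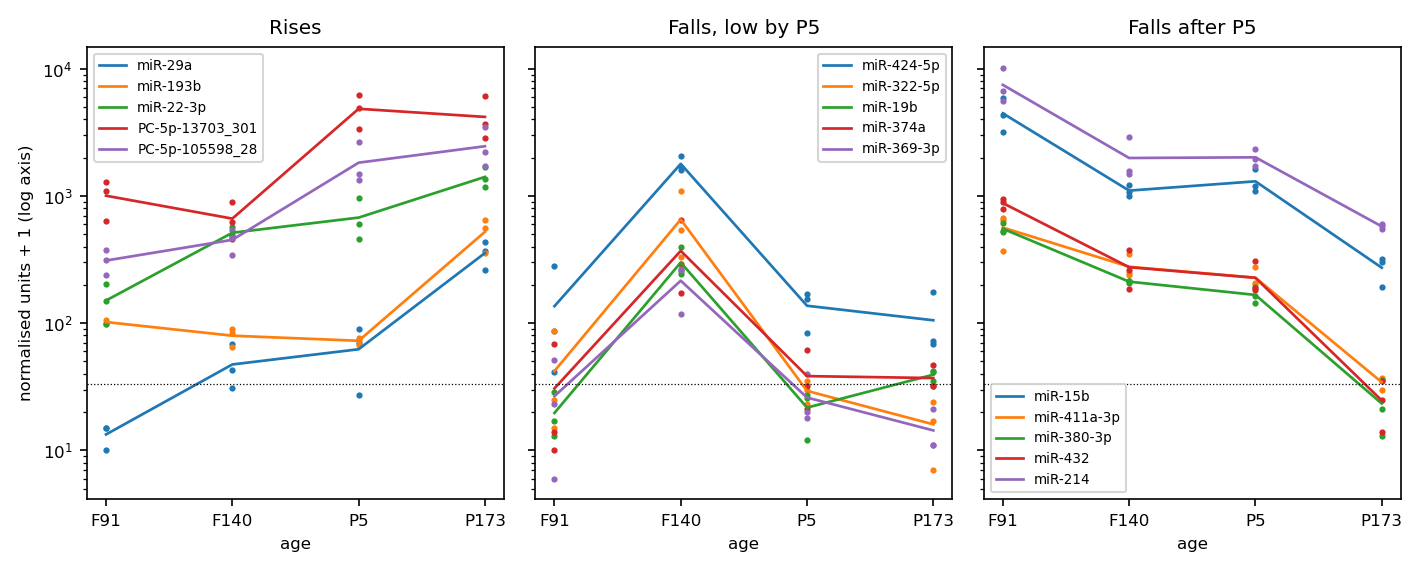
Lines join the means of 5 rises (left), 5 falls that were low by P5 (middle) and 5 falls that came mainly after P5 (right) over F91, F140, P5 and P173, and points are the 3 arrays per age, in normalised units + 1 on a log axis. The miRNA were picked after their values were seen, to show the courses, and the middle panel peaks at F140.

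Other named falls were miR-335, miR-374a and a candidate close to it in sequence. miR-335, which lies in the imprinted gene MEST, read 158, 9 and 65 units at P173, against 912, 1285 and 1519 at F140 (log2 change -4.74 ± 0.97 SE, adjusted p = 0.0163). P173 replicate 2 lay far under the other lambs, and the call was lost without it (adjusted p = 0.0824), without F140 replicate 2 (0.0565) or without F140 replicate 3 (0.065). miR-374a, an X-linked and AU-rich miRNA, read 31, 31 and 46 units at P173, against 643, 173 and 292 at F140 (log2 change -3.17, adjusted p = 0.0299, and 0.139 at most with 1 array left out). PC-5p-87690_34 read 14, 2 and 21 units at P173, all under background, against 154, 55 and 109 at F140, at least 3.31-fold lower (adjusted p = 0.0417, and 0.163 at most with 1 array left out). Its target shares a run of 20 bases with that of miR-374a, so these probes are not independent measurements. miR-374a lost its call without P173 replicate 1 or 2 and without F140 replicate 1 or 3, and PC-5p-87690_34 without any array other than P173 replicate 3.

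miRNA known from fibroblasts fell in 4 of the 6 names listed, with none higher, beside 61 falls among all 2190 names. miR-214, made from the same noncoding transcript as miR-199a, read 546, 578 and 603 units at P173, against 1491, 1579 and 2893 at F140 (log2 change -1.72 ± 0.31 SE, adjusted p = 0.00787), and held with any array left out. miR-199a-5p read 107, 174 and 112 units at P173, against 513 to 611 at F140 (log2 change -2.13, adjusted p = 0.0205). miR-199a-3p read 544, 301 and 553 units at P173, against 2667, 1840 and 3083 at F140 (log2 change -2.46, adjusted p = 0.0296). miR-21, induced in cardiac fibroblasts under load, read 286, 90 and 125 units at P173, against 1043, 765 and 891 at F140 (log2 change -2.59, adjusted p = 0.0352). The lambs lay under the fetuses for all 4. The chosen probes of miR-199a-3p and miR-199a-5p lost their calls in 5 of 6 cases with 1 array left out (adjusted p up to 0.151 and 0.0837), and so did miR-21 (up to 0.177). A variant probe of miR-199a-5p read 109, 175 and 115 units at P173, against 710, 607 and 798 at F140 (adjusted p = 0.00644). Another read 98, 134 and 117 units at P173, against 579, 584 and 720 at F140 (adjusted p = 0.00787). Both variants are entries of the same miRNA and kept their calls with any 1 array left out. The summed level of the list was 1197 to 1547 units at P173 and 4971 to 7687 at F140. The miR-181 family, known from lymphocytes and muscle, fell in 2 of 6 names, miR-181b and miR-181b-5p, both entries of miR-181b. The entry miR-181b read 163, 141 and 213 units at P173, against 482, 489 and 485 at F140 (log2 change -1.51, adjusted p = 0.0106). miR-181b-5p lost its call in 5 of the 6 fits with 1 array left out (adjusted p up to 0.149) and with the GC trend taken out (0.0592).

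The most abundant miRNA of heart muscle showed no called change on the deposited scale, where the list of 26 names held no fall. From the scanner intensities 6 names of the list were lower, miR-208b among them (adjusted p = 0.00227), and 2 were higher. miR-133a read 14275, 16638 and 14555 units at P173, against 9299, 10605 and 10712 at F140 (log2 change 0.57, adjusted p = 0.24). miR-1 read 13643, 5333 and 9061 units at P173, against 15364, 13055 and 20106 at F140 (log2 change -0.87, adjusted p = 0.63). miR-499, made from the myosin gene MYH7B, read 5610, 2493 and 4427 units at P173, against 9350, 7320 and 9231 at F140 (log2 change -1.12, adjusted p = 0.50). The arrays of both ages were apart for miR-133a and miR-499 and overlapped for miR-1. miR-208b, made from the slow myosin gene MYH7, read 136, 40 and 84 units at P173, against 1572, 399 and 750 at F140 (log2 change -3.33, adjusted p = 0.19). With the GC trend of the arrays taken out, the adjusted p were 0.95 for miR-1, 0.75 for miR-499 and 0.31 for miR-208b.

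Several abundant families stayed without a call on any name on the deposited scale. The miR-378 family, made from the PPARGC1B gene of mitochondrial biogenesis, had a median log2 change of 0.05 over 11 names, with miR-378 at 3533, 3431 and 4557 units at P173, against 3917, 3576 and 4148 at F140. The let-7 family, known for rising as tissues mature, had a median of -0.43 over 20 names, with let-7b at 6721, 5913 and 6476 units at P173, against 6863, 6947 and 6340 at F140. Of the 20 let-7 names 17 had a negative log2 change, and from the scanner intensities 2 were lower. The summed level of let-7 was 54892 to 82237 units at P173 and 81869 to 86472 at F140. The miR-30 family had a median of -0.25 over 14 names. With the GC trend taken out, the medians of the miR-378 and miR-30 families turned to -0.06 and 0.09. The deposited scaling gave the miR-320 family a median of 0.10 over 6 names and the miR-23/27/24 list one of 0.12 over 12. mir-378f-p5, a hairpin entry whose name lies outside the miR-378 list, was the exception. It read 44, 65 and 112 units at P173, against 7, 7 and 1 at F140, all under background, at least 2.30-fold higher (adjusted p = 0.0304), and lost its call with any 1 array left out (up to 0.125). A miss of the threshold does not show that levels were alike, and at 3 arrays per age changes of small size were not resolved.

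The labelled tissue was checked against miRNA of other cells. miR-1, miR-133a and miR-499 of muscle were bright at both ages, and the 12 names listed for liver, brain and pancreas were all under 32 units at both ages. miR-126-3p of the endothelium read 3963, 3535 and 3903 units at P173, against 7271, 6044 and 8703 at F140 (log2 change -0.94, adjusted p = 0.36). miR-143 of smooth muscle read 2863, 1776 and 1927 units at P173, against 3559, 4136 and 4443 at F140 (log2 change -0.91, adjusted p = 0.29). None of the 12 white cell names passed, and their summed level was 3237 to 4270 units at P173 and 4560 to 7366 at F140. Of the white cell names 3 had a positive log2 change and 9 a negative one. The part of these cells in the falls above was not tested.

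GC content moved with the direction of change. Among the 775 probes averaging 100 units or more, the median log2 change was -1.10 for 46 targets under 35 % GC, -0.35 for 204 between 35 % and 45 %, 0.11 for 317 between 45 % and 55 % and 0.33 for 208 above. The lower calls in these bins numbered 4, 26, 19 and 4, and the higher calls 0, 3, 9 and 4. The median GC content was 50.0 % for the 17 probes higher at P173 and 40.9 % for the 75 lower. With a linear GC trend taken out of each array, 24 probes were higher and 75 lower, and 76 of the 92 kept their call. The calls of miR-486, miR-369-3p, miR-450b, miR-20a and PC-5p-87690_34 were among those lost, while those of miR-29a, miR-193b, miR-424-5p, miR-380-3p and miR-432 were kept.

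**Figure D5:**
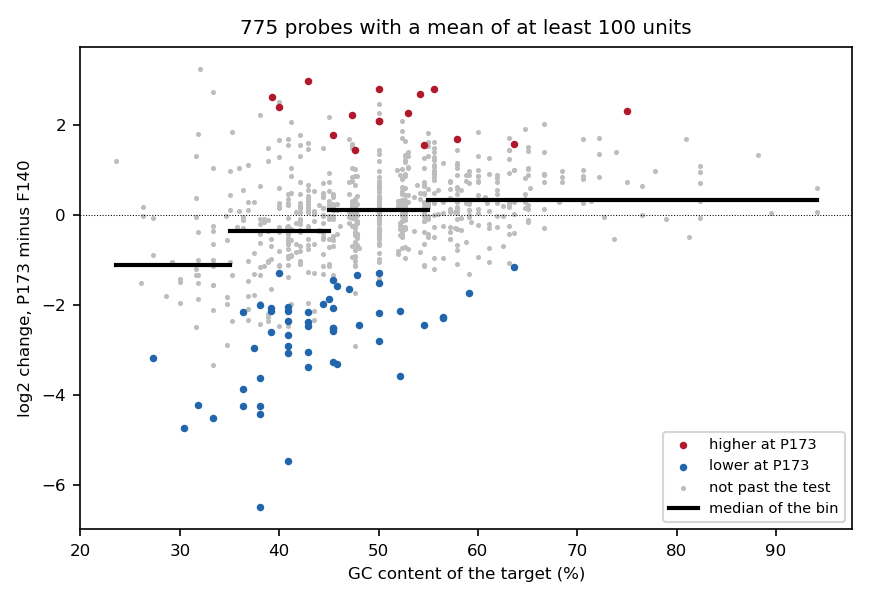
Each point is 1 of the 775 probes averaging 100 units or more, with the GC content of its target in percent and the log2 change, P173 minus F140. Red points were higher at P173, blue points lower and grey points not past the test, and black bars are the medians of the 4 GC bins, which climb with GC content, -1.10 in the lowest and 0.33 in the highest bin.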

How the data were processed

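Total RNA of the left ventricle was measured on custom miRNA arrays read in 1 colour, with 10044 spots each. The authors deposited scanner intensity values per spot, without background correction, a table of normalised intensity per probe with decimals, and the same values as whole numbers. The whole-number score had been background corrected and normalised by the authors (the deposited table names lowess) and is on a linear scale. The build and the scanner software are not given in the sources used here. The table held 3146 probes. Leaving out 55 controls, 3091 were tested without a filter, with 7 probes of the array not analysed here. Values were fitted as log2(value + 0.1) over 12 arrays with limma (version 3.58.1, R 4.3.3), using lmFit and eBayes with its trend option, for the contrast P173 minus F140. Tables and figures were made in Python 3.11.15. The number of arrays limits the precision.

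Species prefixes and variant suffixes were removed, and each of 2190 names was given 1 probe (exact ovine, then exact bovine, then any exact, then variants, ties by brightness). Up to 15 rises and 15 falls were named, the largest by fitted log2 change among called names that averaged 100 units or more at the age where they were brighter and whose arrays did not overlap, plus members of lists. Of the rises, 13 met the rule. The members and lists were chosen with earlier results of these data known. The lists hold muscle miRNA, miRNA of the imprinted region, the miR-15, miR-17-92, miR-424/miR-503, let-7, miR-22, miR-29, miR-30, miR-181, miR-193/miR-365, miR-210, miR-320, miR-378, miR-23/27/24 and miR-26/101 groups, markers of other cells, entries overlapping other RNA and the miRNA that the study measured by qRT-PCR. Gene order and names of miRNA genes came from RefSeq (ARS-UI_Ramb_v3.0). The replicates are separate animals by the series' design text. Alternatives covered the arrays fitted, the replicate block, GC trend, pseudocount, dim probes, variance model, normalisation, source table, threshold and left-out arrays.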

Additional observations from a re-analysis of the deposited data

How the results depend on the processing

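Of the 92 called probes (17 higher and 75 lower at P173) none changed direction under any alternative, and 92 kept their call with a pseudocount of 1 or the decimal table, 88 with centring on bright probes, 84 with quantile normalisation and 77 from the scanner intensities. The number called moved more. It was 166 with a pseudocount of 32 (38 higher, 128 lower), 160 from the scanner intensities (45 higher, 115 lower), 43 without the variance trend (8 higher, 35 lower), 36 at a threshold of 0.01 (6 higher, 30 lower) and 154 at 0.1 (42 higher). The higher calls alone moved to 26 with the 6 arrays alone, 33 with the filter on dim probes and 28 with quantile normalisation. With 1 array left out the count was 42 to 106, with 8 to 18 higher and 34 to 95 lower. Without P173 replicate 2 and F140 replicate 1 together, an alternative chosen after seeing the data, it was 17 (3 higher, 14 lower).

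Deviations of same-numbered P173 and F140 arrays correlated at -0.053, 0.030 and -0.175 over all probes. Over the brighter probes used above to correlate arrays, the values were -0.174, 0.315 and -0.218. Differently numbered arrays ran between -0.511 and 0.546 there. These values did not single out the same-numbered arrays. With deviations from the mean of so few arrays per age, they cannot decide whether the replicate numbers pair the animals. With the replicate block over 12 arrays 88 probes were called (19 higher, 69 lower). With the block and the 6 arrays alone limma called 0 (0 higher, 0 lower), with 400 at an unadjusted p under 0.05, and with the GC trend also taken out 56 (40 lower). The causes were not tested. Of the 62 miRNA followed singly, 861 results by alternative kept their call and 376 fell short of the threshold.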

Other observations

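Some miRNA outside the lists also fell, and they were chosen here after their values were seen. miR-130a, known from vessels and blood-forming cells, read 235, 112 and 161 units at P173, against 1360, 1202 and 1531 at F140 (log2 change -3.07, standard error 0.39, limma adjusted p = 0.000896), and the call held with any 1 array left out. Its average at the other ages was 1153 ± 519 units at F91 and 466 ± 164 at P5 (SD, n = 3 each). miR-148a, which represses the DNA methyltransferase DNMT1, read 301, 141 and 167 units at P173, against 1419, 1599 and 1317 at F140 (log2 change -2.91, adjusted p = 0.0248), but the call held only without P173 replicate 1 (adjusted p up to 0.129 otherwise). miR-218a, made from the SLIT genes, read 30, 16 and 22 units at P173, all under background, against 137, 126 and 175 at F140, at least 4.56-fold lower (adjusted p = 0.0193), and lost its call in 4 of the 6 fits with 1 array left out (up to 0.0927). miR-324-5p read 4, 7 and 17 units at P173, all under background, against 78, 95 and 52 at F140, at least 2.34-fold lower (adjusted p = 0.0117). mir-99b-p5 read 199, 209 and 281 units at P173, against 542, 490 and 488 at F140 (log2 change -1.16, adjusted p = 0.0299). The call of miR-324-5p was lost in 2 and that of mir-99b-p5 in 5 of the 6 fits with 1 array left out.

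miR-210, the miRNA most closely tied to low oxygen, was dim. miR-210-3p read 2, 0 and 13 units at P173, against 32, 25 and 36 at F140 (adjusted p = 0.09), so that the 3 lambs were under background and the fetuses at its edge. miR-150, of mature lymphocytes, read 297, 286 and 291 units at P173, against 106, 109 and 151 at F140 (log2 change 1.27, adjusted p = 0.10), and miR-155, of activated leukocytes, read 54, 36 and 60 units at P173, against 153, 104 and 218 at F140 (log2 change -1.63, adjusted p = 0.07). These white cell miRNA differed in direction, and neither passed.

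On the arrays, 5 of the 24 names in the qRT-PCR list were lower and none higher, beside 61 lower among all 2190 names. These were miR-15b, miR-15b-5p, miR-16-5p, miR-199a-3p and miR-199a-5p, so they are fewer miRNA than names. On their chosen probes miR-16-5p, miR-199a-3p and miR-199a-5p lost their calls in 5 of the 6 fits with 1 array left out. miR-26a and miR-26b did not pass, with miR-26a at 12273, 7533 and 10442 units at P173, against 11941, 12237 and 14959 at F140 (log2 change -0.39, adjusted p = 0.51).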
